A study of Mus musculus with 2 samples.

Results

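The interleukin-6 (IL-6) family of cytokines and the genes through which it signals were followed in single cells of the mouse abdominal aorta. The genes are the 4 ligands Il6, Il11, Lif and Osm, the receptors Il6ra and Osmr, the shared receptor chain Il6st (gp130), the transcription factor Stat3 and its feedback inhibitor Socs3. They were taken by gene symbol, and all 9 were found, each in 1 of the 33696 rows of both count matrices. Both libraries came from male C57BL/6J mice aged 5 months. The Control mice received normal saline. The AngII+HS mice carried a minipump that delivered angiotensin II at 1500 ng/kg/min and drank water with 0.9% NaCl and 0.2% KCl, which produces abdominal aortic aneurysm, and the tissue was taken at 28 days. The labels name no transgene or deletion in either group, and the series has 1 library per condition.

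IL-6 family cytokines bind a private receptor on the cell surface, which then pairs with gp130. The gp130 chain carries the kinase JAK1, which activates STAT3, and STAT3 in turn induces Socs3, whose product binds gp130 and shuts the signal down. Il6ra is made by few cell types, but its shed form can serve cells that have gp130 alone (trans-signaling). In mice, oncostatin M (OSM) acts mainly through the pair of Osmr and gp130. In the aortic wall, IL-6 is known as a product of adventitial fibroblasts and macrophages and as an inducer of the acute phase response.

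The design text says that the tissue of 5 mice was pooled in each library, while the protocol label speaks of 1 control mouse and 2 treated mice. Either way the mice of a library cannot be told apart, so each condition is 1 sample, no test between conditions was possible, and every interval below covers counting error only. The Control library held 11448 cell barcodes and 86618995 unique molecular identifiers (UMIs), and the AngII+HS library 24804 barcodes and 117146856 UMIs. After filtering, 10269 and 19734 cells remained, with medians of 7265 and 3069.5 UMIs. The barcode list recorded with each sample has the length of the other library's matrix, and 67 barcodes are on both lists. The matrices were used as recorded, under samples whose condition their own names share, while the names of the lists give the other condition. If the matrices and not the lists were exchanged, every direction given below would turn. Clustering gave 24 clusters and 12 named cell types. Vascular smooth muscle cells (VSMCs) accounted for 49.4% of cells in Control and 3.42% in AngII+HS, macrophages 5.28% and 23.3%, and neutrophils 0.954% and 23.5%. Defining markers were highest in the cells named for them, except for the pericyte list in both libraries and the VSMC list in Control. A mural cluster of 175 and 225 cells was led by Pln and Notch3 and scored highest for pericyte markers, with Notch3 at 603 and 1144 UMIs per 1000000 UMIs (CPM) against 57.9 and 47.1 in VSMCs. However, the summed VSMC markers of this cluster were 29970 CPM in Control against 28535 CPM in VSMCs (20197 against 39678 CPM in AngII+HS), its Rgs5 was lower than in VSMCs (1436 and 3545 against 5409 and 6202 CPM) and its Acta2 was 13629 and 9057 CPM, so it is called the Pln/Notch3 mural cluster here.

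Levels are given as CPM over the summed cells of a type, for the 11 types found in both libraries, since the 170 plasma cells all came from AngII+HS. In the GRCm39 annotation, Il6 lies at chr5:30218112-30224979 on the plus strand, and Osm (chr11:4186420-4191026) and Lif (chr11:4207557-4222514) are neighbours on the plus strand of the same chromosome. Socs3 lies at chr11:117856905-117860898 and Stat3 at chr11:100775924-100830450, both on the minus strand. Il6ra is at chr3:89771366-89820719 (minus), Il11 at chr7:4775372-4785858 (minus), Il6st at chr13:112600604-112646620 (plus) and Osmr at chr15:6843053-6904450 (minus).

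The upstream sequences of Il6, Lif and Socs3 are shown because these 3 genes carry the main differences described below. Each run is the 250 bases before the RefSeq start site in GRCm38.p6, read 5′ to 3′ on the gene's strand. Capitals mark matches, on either strand, to a STAT element (TTCNNNGAA), an AP-1 element (TGACTCA or TGAGTCA) or an NF-kappaB element. The regions are chr5:30012864-30013113 (plus) for Il6, chr11:4257318-4257567 (plus) for Lif and chr11:117969367-117969616 (minus) for Socs3.
Il6: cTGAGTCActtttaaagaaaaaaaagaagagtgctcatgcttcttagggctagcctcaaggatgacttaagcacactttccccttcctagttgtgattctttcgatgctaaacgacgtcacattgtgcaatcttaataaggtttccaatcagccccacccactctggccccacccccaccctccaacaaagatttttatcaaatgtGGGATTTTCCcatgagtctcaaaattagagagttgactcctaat
Lif: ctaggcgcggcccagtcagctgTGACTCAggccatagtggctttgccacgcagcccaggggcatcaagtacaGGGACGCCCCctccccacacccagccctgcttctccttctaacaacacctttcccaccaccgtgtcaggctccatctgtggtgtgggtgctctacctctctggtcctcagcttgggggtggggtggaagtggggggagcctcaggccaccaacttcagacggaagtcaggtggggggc
Socs3: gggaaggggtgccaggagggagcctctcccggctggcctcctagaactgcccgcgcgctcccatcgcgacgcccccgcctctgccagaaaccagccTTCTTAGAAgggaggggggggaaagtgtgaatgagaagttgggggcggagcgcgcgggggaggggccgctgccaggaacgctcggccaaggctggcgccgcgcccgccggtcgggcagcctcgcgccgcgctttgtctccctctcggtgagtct

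Of the 8 genes with an entry in the promoter table, Socs3 was the 1 gene with a STAT element in this window, beginning 154 bases before the start. The element was present in 7.02% of all 32851 promoter windows of the same length. Il6 held an AP-1 element beginning at 249 bases and an NF-kappaB element beginning at 44 bases before the start, and Lif held both as well, at 228 and 178 bases. The second of 2 start sites of Il11 held an AP-1 element at 98 bases. AP-1 elements were found in 4.46% and NF-kappaB elements in 7.25% of all windows. No match was found for Il6ra, Il6st, Osmr or Stat3. A match describes the letters and does not show binding.

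Il6 was a fibroblast transcript in both libraries. Fibroblasts, the matrix-producing cells of the adventitia, held 10910 of 12422 Il6 UMIs in Control (87.8%, exact binomial 95% interval 87.2 to 88.4) and 28893 of 32508 in AngII+HS (88.9%, 88.5 to 89.2), while making up 25.7% and 24.1% of cells. Their level was nearly the same, at 1069 CPM in Control and 1017 CPM in AngII+HS (log2 ratio -0.07, interval -0.10 to -0.04). Thus the higher Il6 total of the AngII+HS library, 404 against 165 CPM over all cells, came with a fibroblast level that was not higher. Fibroblasts held 10204928 of 75265697 retained UMIs in Control and 28413661 of 80416904 in AngII+HS. Their part of all UMIs was thus larger in AngII+HS, while their part of cells was not. Il6 UMIs per 100 fibroblasts were 413 in Control and 608 in AngII+HS. After thinning each cell to 1000 UMIs, 39.9% of Control and 45.2% of AngII+HS fibroblasts had an Il6 UMI (52.6% and 68.6% before thinning), against 3.79% and 2.42% of T cells, which should lack the gene. The median depths were 3224 and 5123 UMIs in fibroblasts and 4446 and 2331 in T cells.

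**Figure D1:**
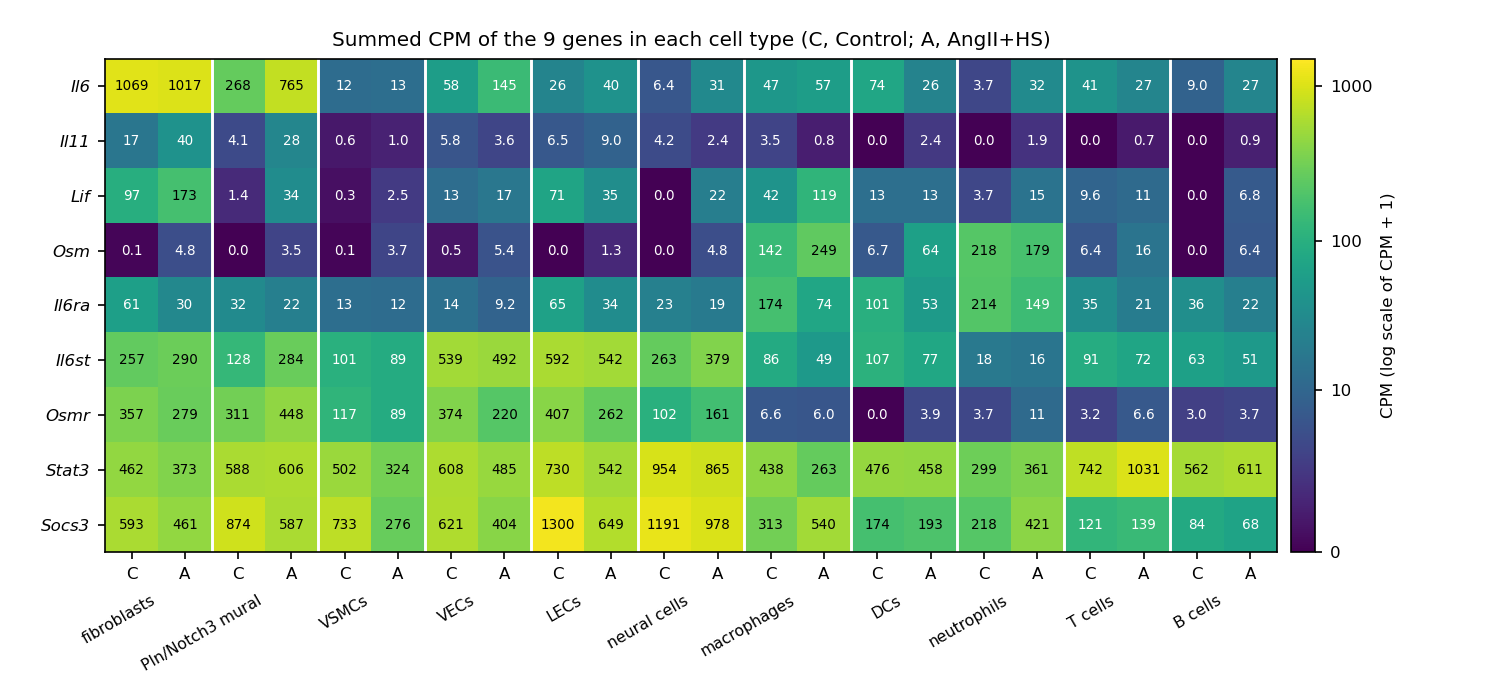
Heat map of the level of each of the 9 genes (rows) in 11 cell types (pairs of columns; C, Control; A, AngII+HS). Numbers are CPM over the summed cells, and color follows CPM + 1 on a log scale. Il6 is highest in fibroblasts in both libraries, Osm in macrophages and neutrophils, and Osmr is near 0 in the 5 leukocyte types.

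Among fibroblasts, Il6 differed by cluster. The cluster led by Gpr39 and Fmod had the highest Il6 in both libraries, at 1551 CPM in Control and 1380 CPM in AngII+HS. In the cluster led by Ptx3 and Sfrp4 it was 823 and 914 CPM, and in the cluster led by Fst and Fhl2 625 and 774 CPM. The last cluster, led by Mmp13 and Prg4, had 169 cells, all from the AngII+HS library, and 483 CPM. The first cluster was thus lower and the next 2 higher in AngII+HS, each by less than 2-fold.

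Il6 differed more between the libraries in the Pln/Notch3 mural cluster and in vascular endothelium than in fibroblasts. In the Pln/Notch3 mural cluster it was 268 CPM in Control (390 UMIs) and 765 CPM in AngII+HS (886 UMIs), 2.86-fold higher (log2 ratio 1.52, interval 1.34 to 1.69). In vascular endothelial cells (VECs) it was 58.0 CPM (250 UMIs) and 145 CPM (934 UMIs), 2.51-fold higher (log2 ratio 1.33, 1.12 to 1.53). Both VEC clusters shared this direction, the cluster led by Fabp4 and Gpihbp1 with 113 and 181 CPM and the one led by Cytl1 and Gja5 with 22.2 and 82.6 CPM. The summed level of 7 fibroblast markers moved with it, from 1074 to 2258 CPM in the mural cluster and from 291 to 648 CPM in VECs, against 18474 and 38500 CPM in fibroblasts themselves. The part of fibroblast RNA in these Il6 values was not tested. VSMCs had 12.2 and 13.2 CPM of Il6, against 41.4 and 26.8 CPM in T cells. The Control value of T cells rests on 26 UMIs, of which 24 lay in a cluster of 36 cells, and the other T cell cluster, of 97 cells, had 2 UMIs (4.15 CPM). Neutrophils had 3.69 CPM in Control, on 1 UMI and under the T cell value, and 32.2 CPM in AngII+HS, near it. Macrophages had 46.9 and 57.5 CPM, and in AngII+HS their interval (54.2 to 60.9) lay above that of T cells (21.1 to 33.5). Their main clusters went opposite ways. The cluster led by Arg1 and Ccl24 had 12.1 CPM on 4 UMIs in 41 Control cells and 84.8 CPM on 723 UMIs in AngII+HS. Its log2 ratio was 2.81 (interval 1.45 to 4.69). The cluster led by C1qa and C1qc had 53.4 and 38.0 CPM (-0.49, -0.81 to -0.16). Summed fibroblast markers of all macrophages were 131 CPM in Control and 486 CPM in AngII+HS. The part of fibroblast RNA in these macrophage values was not tested.

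**Figure D2:**
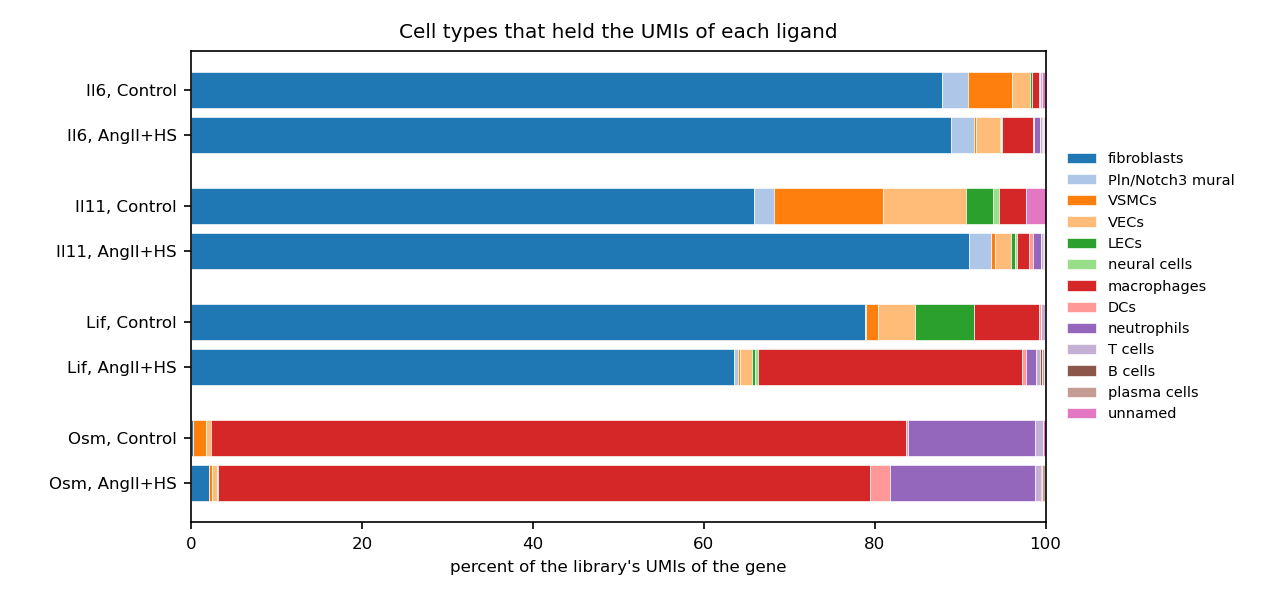
Stacked bars of the percent of each library's Il6, Il11, Lif and Osm UMIs (x axis) that lay in each cell type (colors). Fibroblasts hold most Il6 in both libraries, macrophages hold 7.63% of Lif UMIs in Control and 30.9% in AngII+HS, and macrophages and neutrophils hold nearly all Osm.

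Il11, a profibrotic cytokine, was rare. Fibroblasts held 170 of 258 Il11 UMIs in Control and 1138 of 1250 in AngII+HS, with levels of 16.7 and 40.1 CPM (log2 ratio 1.27, interval 1.03 to 1.51). A few cells carried the difference. In AngII+HS, 34 fibroblasts with 5 or more Il11 UMIs held 72.2% of the fibroblast Il11 UMIs, and the highest single cell held 139, whereas 2 Control fibroblasts reached 5 UMIs. The Mmp13/Prg4 cluster, 0.856% of the AngII+HS cells, held 590 UMIs (253 CPM, interval 233 to 274), 47.2% of all Il11 UMIs of that library. Without this cluster, a comparison chosen after the data were seen, the log2 ratio in fibroblasts was 0.34. Of the 169 cells of the cluster, 163 had doublet scores high enough to be removed when the number of doublets removed was doubled, and their median depth was 13629 UMIs. That setting took out 1812 of all 4755 AngII+HS fibroblasts (38.1%, against 24.5% of all retained AngII+HS cells), with 960 of their 1138 Il11 UMIs. With it the log2 ratio in fibroblasts was -0.53. The Ptx3/Sfrp4 cluster had 9.77 CPM in Control and 26.5 CPM in AngII+HS, and the other 2 fibroblast clusters did not exceed their Control level.

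Lif, which acts through Lifr and gp130, came from fibroblasts and macrophages. In fibroblasts it was 97.2 CPM in Control and 173 CPM in AngII+HS (992 and 4906 UMIs), 1.78-fold higher. The Ptx3/Sfrp4 cluster was higher, with 72.9 and 255 CPM (log2 ratio 1.81, interval 1.64 to 1.98), and the Mmp13/Prg4 cluster of AngII+HS had 212 CPM on 494 UMIs. The Gpr39/Fmod cluster had 148 and 149 CPM, and the Fst/Fhl2 cluster 47.7 and 31.4 CPM. In macrophages Lif was 42.04 CPM (96 UMIs) and 119 CPM (2390 UMIs), 2.82-fold higher (log2 ratio 1.50, 1.202 to 1.81). Here the cluster led by Arg1 and Ccl24 had 63.3 and 243 CPM, while the cluster led by C1qa and C1qc had 38.7 and 28.7 CPM. The Arg1 cluster held 41 Control and 2080 AngII+HS cells, so its Control value rests on 21 UMIs. Lymphatic endothelial cells (LECs) went the other way by summed CPM, with 70.5 and 34.9 CPM on 87 and 27 UMIs. The 87 Control UMIs lay in 20 of 137 cells. After thinning, 2.22% of Control and 3.57% of AngII+HS LECs had a Lif UMI, so the lower level was not seen at equal depth. B cells, which should lack Lif, had 0 and 15 UMIs.

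**Figure D3:**
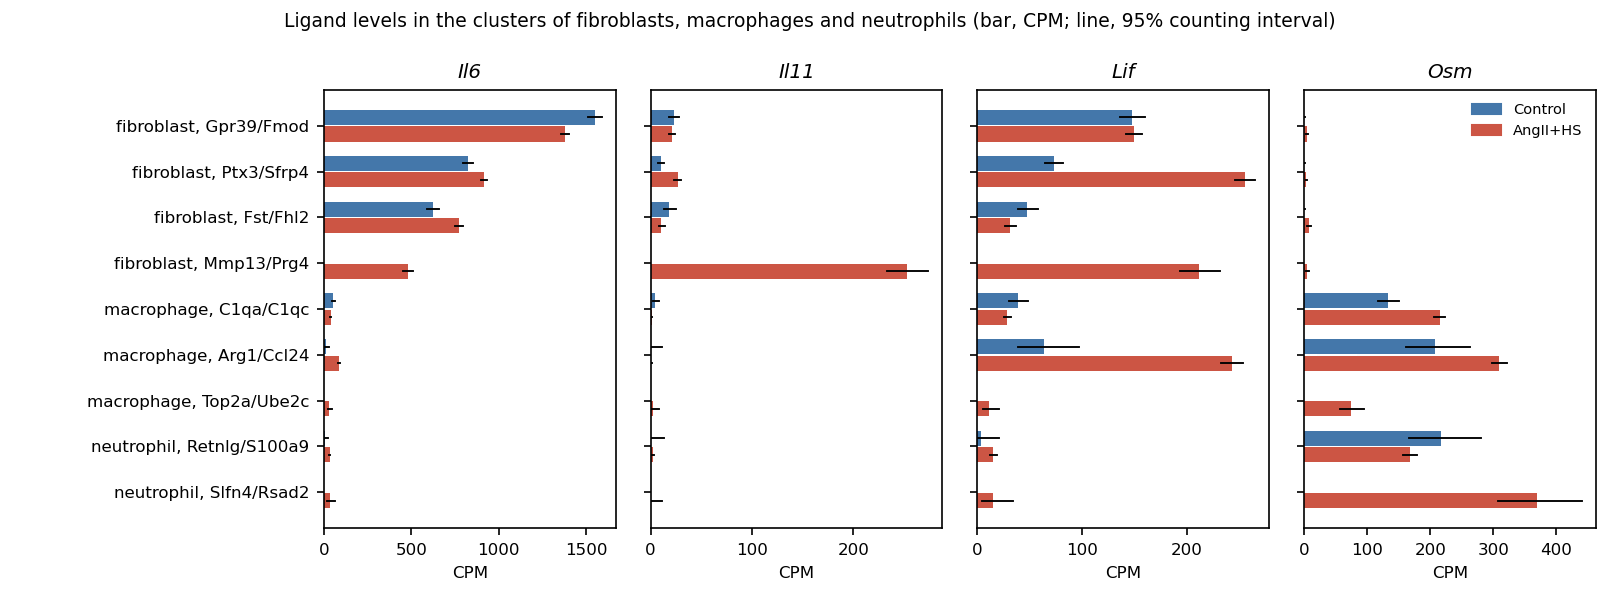
Bars of Il6, Il11, Lif and Osm (CPM; lines, 95% counting intervals) in each cluster of fibroblasts, macrophages and neutrophils, named by their leading genes, for clusters with at least 20 cells of a library. Il11 stands out in the AngII+HS-derived Mmp13/Prg4 fibroblasts, and Lif is higher in AngII+HS in the Ptx3/Sfrp4 fibroblasts and the Arg1/Ccl24 macrophages.

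Osm was a myeloid transcript. Macrophages held 325 of 399 Osm UMIs in Control (81.5%) and 5012 of 6568 in AngII+HS (76.3%), and neutrophils held 14.8% and 16.9%. The macrophage level was 142 CPM in Control and 249 CPM in AngII+HS, 1.75-fold higher (log2 ratio 0.81, interval 0.64 to 0.97), and both main macrophage clusters were higher, with 133 and 215 CPM in the C1qa/C1qc cluster and 208 and 309 CPM in the Arg1/Ccl24 cluster. After thinning, 9.85% and 20.3% of macrophages had an Osm UMI (27.3% and 47.2% before), against 0 and 0.446% of VSMCs. Neutrophils had 218 CPM (59 UMIs in 98 cells) and 179 CPM, with an interval of the log2 ratio that includes 0 (-0.66 to 0.12). A neutrophil cluster led by Slfn4 and Rsad2, genes of the interferon response, had 370 CPM in 229 AngII+HS cells. The Osm of non-myeloid types was 0 to 0.464 CPM in Control and 1.29 to 5.44 CPM in AngII+HS in fibroblasts, mural cells and endothelium. Neutrophil markers moved with it, from 7.01 to 192 CPM in VSMCs and from 24.8 to 245 CPM in VECs. Macrophage markers did too, from 12.1 to 71.4 CPM in VSMCs and from 25.5 to 125 CPM in VECs. This low Osm was not read as expression, and the part of myeloid RNA in it was not tested.

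Together, the library total of Osm was 5.30 CPM in Control and 81.7 CPM in AngII+HS, beside a macrophage and neutrophil share of cells that was also higher. By summed CPM the level within macrophages was less than 2-fold higher. With equal weight per cell, its log2 ratio was 1.17, past 2-fold.

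Il6ra, the receptor that IL-6 needs, was highest in myeloid cells. Neutrophils had 214 CPM in Control and 149 CPM in AngII+HS, macrophages 174 and 73.8 CPM, and dendritic cells (DCs) 101 and 52.9 CPM. The neutrophil value in Control rests on 58 UMIs, and its interval overlapped that of macrophages. The macrophage level was 2.36-fold lower in AngII+HS (398 and 1486 UMIs, log2 ratio -1.24, interval -1.40 to -1.08), in the C1qa/C1qc cluster with 185 and 80.0 CPM and in the Arg1/Ccl24 cluster with 121 and 67.4 CPM. Fibroblasts had 61.2 and 29.7 CPM, 2.06-fold lower, and this lay in the Ptx3/Sfrp4 cluster with 115 and 38.7 CPM. The Gpr39/Fmod cluster had 28.0 and 30.1 CPM. When each cell had the same weight, the log2 ratio of fibroblasts was -0.30. VSMCs, with 12.9 and 12.2 CPM, and VECs, with 13.7 and 9.18 CPM, were lowest, and VSMCs were the type taken to show background. By summed CPM, Il6ra was lower in AngII+HS in each of the 11 types compared. The interval lay below 0 in fibroblasts, VECs, LECs, macrophages, DCs and neutrophils. After thinning, the share of cells with an Il6ra UMI was lower in macrophages (17.6% and 7.98%) and fibroblasts, with intervals that did not overlap. In neutrophils, LECs, B cells, neural cells and VSMCs the thinned share was also lower, but the intervals overlapped, so no fall at equal depth is read there. The thinned share was 1.26% and 1.22% in VECs, and higher in AngII+HS in the mural cluster (1.71% and 2.67%) and T cells (0.758% and 2.04%), again with intervals that overlapped. DCs, with 15 UMIs in 30 Control cells, also had a higher share (0 and 6.20%), with overlapping intervals. In VSMCs the sign of the log2 ratio turned under other clusterings and with equal weight per cell, and in VECs with no doublets removed.

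Il6st was highest in endothelium. LECs had 592 CPM in Control and 542 CPM in AngII+HS, and VECs 539 and 492 CPM. Neural cells followed with 263 and 379 CPM and fibroblasts with 257 and 290 CPM, their intervals overlapping in Control. Neutrophils were lowest with 18.4 and 15.9 CPM. Fibroblasts, VSMCs, VECs and LECs differed between libraries by less than 1.2-fold. The 2 VEC clusters went opposite ways. The Fabp4/Gpihbp1 cluster had 711 and 477 CPM (log2 ratio -0.58, interval -0.68 to -0.47). The Cytl1/Gja5 cluster had 427 and 519 CPM (0.28, 0.16 to 0.40). In the Pln/Notch3 mural cluster Il6st was 128 CPM (186 UMIs) and 284 CPM (329 UMIs), 2.23-fold higher (log2 ratio 1.16, interval 0.89 to 1.42), and 0.75 on the log2 scale with the doublets removed doubled. In macrophages it was 85.8 and 49.3 CPM, 1.74-fold lower.

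Osmr, the OSM receptor, was a gene of the structural cells. In Control it was 407 CPM in LECs, 374 CPM in VECs, 357 CPM in fibroblasts, 311 CPM in the Pln/Notch3 mural cluster, 117 CPM in VSMCs and 102 CPM in neural cells. VECs and fibroblasts, whose intervals were 356 to 393 and 346 to 369 CPM, did not differ beyond counting error. In AngII+HS the mural cluster was highest with 448 CPM, ahead of fibroblasts (279 CPM), LECs (262 CPM), VECs (220 CPM), neural cells (161 CPM) and VSMCs (89.5 CPM). Macrophages had 6.57 and 6.01 CPM and T cells, the background type, 3.18 and 6.61 CPM, so Osmr was not detectable above background in macrophages. The VEC level was 1.70-fold lower in AngII+HS (1613 and 1412 UMIs, log2 ratio -0.77, interval -0.87 to -0.66) in both VEC clusters, with 433 and 235 CPM in the Fabp4/Gpihbp1 cluster and 336 and 193 CPM in the Cytl1/Gja5 cluster. With equal weight per cell, the log2 ratio of VECs was -0.52. After thinning, 24.6% (interval 21.6 to 27.7) and 20.9% (18.6 to 23.4) of VECs had an Osmr UMI, with intervals that overlapped.

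**Figure D4:**
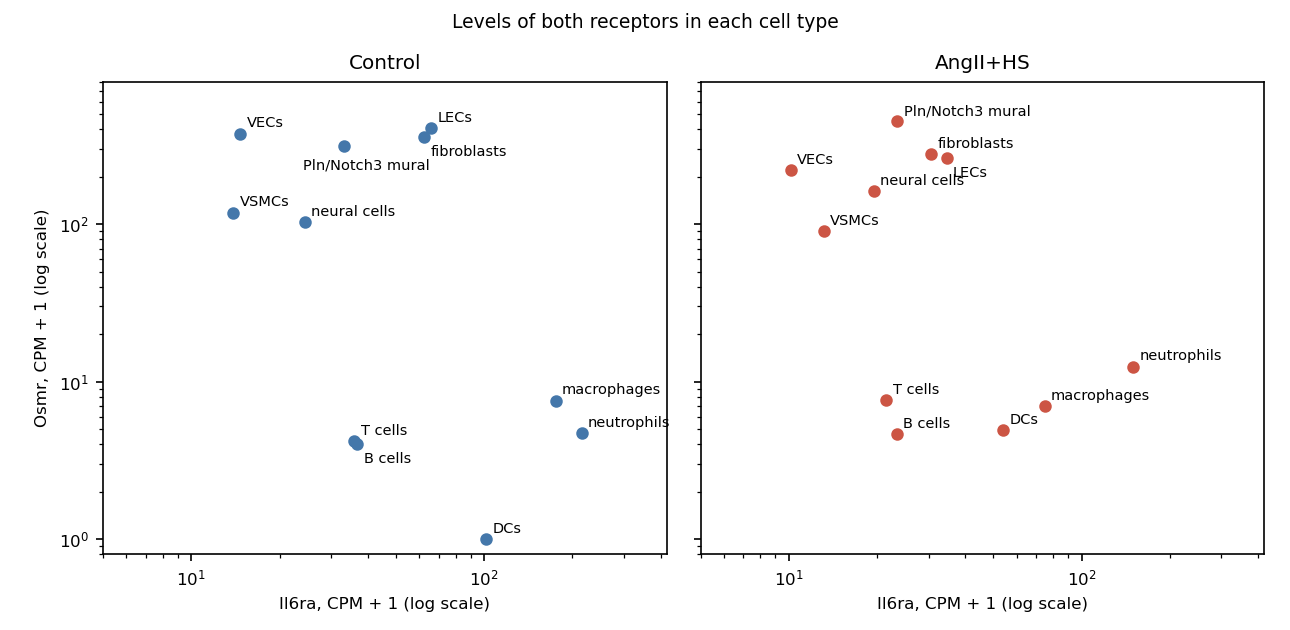
Il6ra (x axis) against Osmr (y axis), both as CPM + 1 on log scales, for 11 cell types in Control (left) and AngII+HS (right). The 5 leukocyte types lie low in Osmr (0 to 11.4 CPM), and the 6 structural types lie at 89.5 CPM or above.

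The highest Il6ra was thus found in types with little Osmr, but LECs and the Ptx3/Sfrp4 fibroblasts had both, with 64.8 and 115 CPM of Il6ra beside 407 and 364 CPM of Osmr in Control. UMIs of Osmr and Il6st were also counted in the same cells. At 1000 UMIs per cell, 9.19% of Control and 8.62% of AngII+HS VECs had a UMI of both Osmr and Il6st (49.1% and 40.1% before thinning). For fibroblasts the shares were 5.27% and 6.61% (31.1% and 49.2% before thinning). In macrophages, 0 of 477 and 0 of 4375 cells had both, whereas before thinning 0.185% and 0.545% of macrophages had both. Il6ra and Il6st together were seen in 12 of 477 Control macrophages (2.52%, interval 1.31 to 4.35) and in 13 of 4375 from AngII+HS (0.297%, 0.158 to 0.508), and before thinning in 16.6% and 5.27%. At this depth 794 of 837 and 1149 of 1230 VECs, 2183 of 2641 and 4597 of 4755 fibroblasts, and 477 of 542 and 4375 of 4591 macrophages could be counted.

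Stat3 was read in every cell type, from 299 CPM in neutrophils to 954 CPM in neural cells in Control. In AngII+HS it was highest in T cells, with 1031 CPM against 742 CPM in Control (log2 ratio 0.47, interval 0.33 to 0.62). Stat3 was 502 and 324 CPM in VSMCs and 438 and 263 CPM in macrophages, 1.55-fold and 1.67-fold lower in AngII+HS. In the Pln/Notch3 mural cluster it was 588 and 606 CPM. No type differed by 2-fold.

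By summed CPM, Socs3 was lower in the structural cells of AngII+HS and higher in its macrophages and neutrophils. In VSMCs it was 733 CPM in Control (38690 UMIs) and 276 CPM in AngII+HS (1651 UMIs), 2.66-fold lower (log2 ratio -1.41, interval -1.48 to -1.34), and the 3 VSMC clusters gave 674 and 254, 768 and 354, and 816 and 266 CPM. LECs had 1300 and 649 CPM, VECs 621 and 404 CPM and the Pln/Notch3 mural cluster 874 and 587 CPM. In macrophages Socs3 was 313 CPM (715 UMIs) and 540 CPM (10871 UMIs), 1.72-fold higher (log2 ratio 0.79, 0.68 to 0.90), with 304 and 567 CPM in the C1qa/C1qc cluster and 389 and 517 CPM in the Arg1/Ccl24 cluster. Neutrophils had 218 CPM (59 UMIs in 98 cells) and 421 CPM (2614 UMIs), 1.93-fold higher. Over all genes measured in neutrophils the median log2 ratio was 0.33, and 30.3% were at least 2-fold higher. DCs had 174 and 193 CPM, with an interval of the log2 ratio that includes 0 (-0.43 to 0.77). After thinning, 46.0% and 20.1% of VSMCs had a Socs3 UMI (90.8% and 59.1% before), and 22.0% and 37.0% of macrophages (51.7% and 69.5% before). The thinned shares were 48.1% and 35.7% in LECs, 49.1% and 36.4% in the Pln/Notch3 mural cluster, and 30.6% and 30.5% in VECs. They were 48.9% and 49.1% in neural cells and 30.9% and 34.0% in fibroblasts. In neutrophils the thinned shares were 19.6% (interval 12.2 to 28.9) and 30.2% (28.7 to 31.7), with intervals that just overlapped. With equal weight per cell, the log2 ratio was -0.30 in VECs and 0.05 in fibroblasts. Fibroblasts, with 593 and 461 CPM, mixed both directions. The Ptx3/Sfrp4 cluster had 887 and 436 CPM, the Gpr39/Fmod cluster 428 and 553 CPM and the Fst/Fhl2 cluster 307 and 436 CPM.

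Immediate early and stress genes, which respond to tissue dissociation, moved with Socs3 in VSMCs. The summed level of 12 such genes was 26577 CPM in Control and 12757 CPM in AngII+HS, and 6 of the 12 were at least 2-fold lower, beside 10% of all genes in VSMCs, with Egr1 at 4797 and 1632 CPM and Fosb at 2951 and 1235 CPM the most. The sum was 18396 and 9277 CPM in the Pln/Notch3 mural cluster, 17122 and 11021 CPM in VECs, 14066 and 13731 CPM in fibroblasts and 5127 and 8384 CPM in neutrophils. Their part in the Socs3 values was not tested. In macrophages the list went the other way from Socs3, with 14277 and 7886 CPM.

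**Figure D5:**
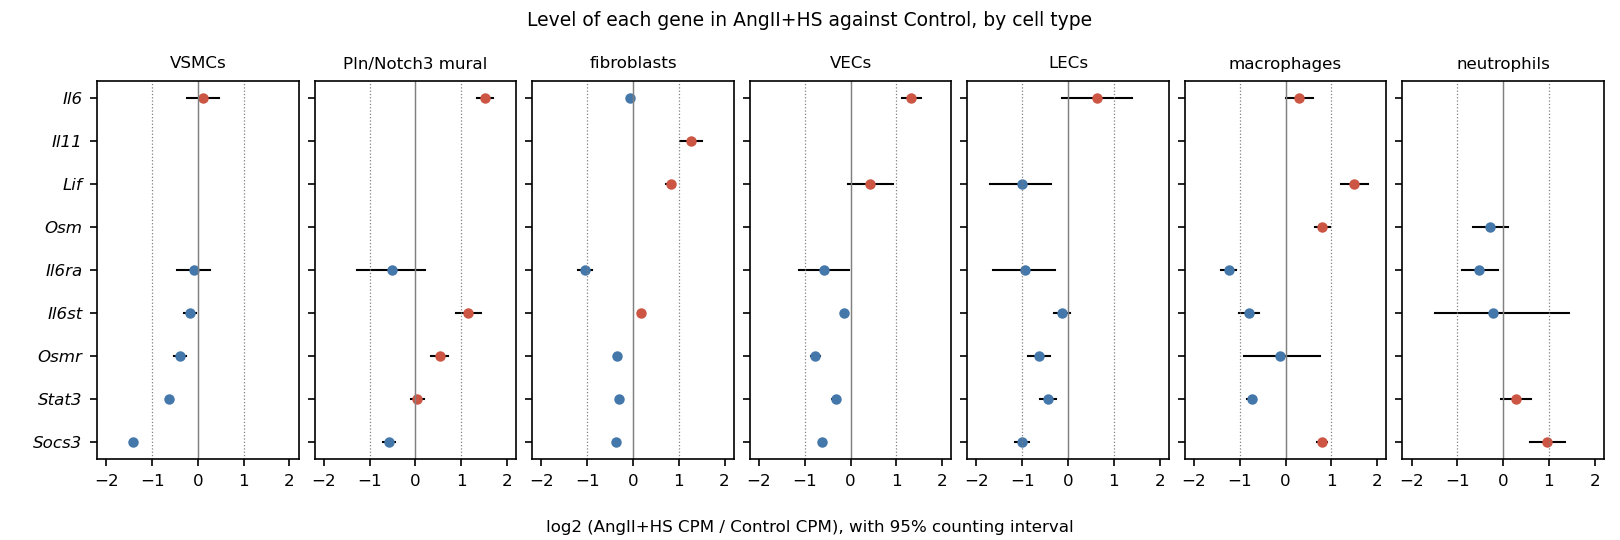
log2 ratio of AngII+HS to Control (x axis) with its 95% counting interval for each gene in 7 cell types, shown where both libraries had more than 3 UMIs and together at least 50. Dotted lines mark 2-fold. Red points are above 0 and blue points below 0. Socs3 lies past 2-fold on the lower side in VSMCs, at about 2-fold lower in LECs, and above 0 in macrophages and neutrophils.

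Against all genes with at least 50 UMIs in the type, these differences were read as follows. In VSMCs, 1 of 6 family genes measured was at least 2-fold lower (Socs3) and none higher, where 10% and 3.96% of 13555 genes were. In the Pln/Notch3 mural cluster, 2 of 6 were higher (Il6 and Il6st) and none lower, beside 6.92% and 4.39% of 6559 genes. Il11 (6 and 32 UMIs) and Lif (2 and 39 UMIs) fell under the limit of 50 UMIs in this cluster. Il11 was 4.12 and 27.6 CPM there (interval of the log2 ratio 1.47 to 4.30), and Lif 1.37 and 33.7 CPM (2.67 to 7.71). The part of fibroblast RNA in these values was not tested. In fibroblasts, 2 of 9 were higher (Il11 and the background-level Osm) and 1 lower (Il6ra), beside 6.13% and 5.99% of 13646 genes. In VECs, 1 of 7 was higher (Il6) and none lower, beside 6.28% and 4.21% of 10915 genes. In macrophages, 1 of 8 was higher (Lif) and 1 lower (Il6ra), beside 11.3% and 13.1% of 11538 genes, so the family's counts there were near the background. In neutrophils, 3 of 8 were higher (Il6, Lif and Osmr, each on 1 Control UMI) and none lower, beside 30.3% and 10.2% of 7149 genes.

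Of the other ligands of the family, Il27, a cytokine subunit whose receptor includes gp130, was 6.93 CPM in Control and 3.34 CPM in AngII+HS in VSMCs, on 366 and 20 UMIs. Clcf1, a cytokine that acts through gp130, was 5.19 CPM in Control and 5.51 CPM in AngII+HS in VSMCs, 19.1 and 19.6 CPM in fibroblasts and 8.76 and 38.8 CPM in macrophages. Among 5 other receptors, Lifr was 158 and 45.3 CPM in macrophages and 76.5 and 44.3 CPM in fibroblasts, and Il31ra was 19.9 and 4.72 CPM in fibroblasts. Il11ra1, the IL-11 receptor, was 434 and 416 CPM in fibroblasts and 215 and 187 CPM in VSMCs. None of the 5 kinase and shedding genes (Jak1, Jak2, Tyk2, Adam10 and Adam17) differed by 2-fold in VSMCs, fibroblasts, VECs, macrophages or neutrophils. Of 7 further feedback genes, 2 of 6 measured were at least 2-fold lower in VSMCs, beside 10% of all genes, Cish with 16.6 and 4.51 CPM and Socs1 with 44.1 and 15.9 CPM. In fibroblasts 0 of 7 passed 2-fold in either direction.

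Genes known to follow STAT3 were a list of 22, all measured in the 5 types described here. In fibroblasts 5 of 22 were at least 2-fold higher and 0 lower, beside 6.13% and 5.99% of all genes (list median 0.08 against -0.13 over all genes, log2). These were the acute phase gene Saa3 (3.04 and 988 CPM), the iron-binding lipocalin Lcn2 (2.55 and 94.95 CPM), and, named after their values were seen, Lrg1 (1.08 and 27.1 CPM), the metalloproteinase inhibitor Timp1 (230 and 1569 CPM) and the serpin Serpina3n (135 and 824 CPM). The summed neutrophil markers of fibroblasts were also far higher in AngII+HS than in Control. The part of neutrophil RNA in these fibroblast values, among them those of Lcn2 and Lrg1, was not tested. In VSMCs 6 were higher and 6 lower, beside 3.96% and 10% of all genes, with a list median of -0.49 against -0.06. The lowest were Myc (117 and 32.9 CPM) and Vegfa (62.4 and 26.2 CPM), and the highest, Saa3, reached 10.2 CPM in AngII+HS from 0.114 CPM. The summed fibroblast markers of VSMCs were 1575 CPM in Control and 3871 CPM in AngII+HS, against 18474 and 38500 CPM in fibroblasts. The part of fibroblast RNA in the higher VSMC values was not tested. In macrophages 6 were higher and 3 lower, beside 11.3% and 13.1% of all genes, so that the lower count was near the background. Vegfa at 10.95 and 196 CPM and Timp1 at 1.31 and 82.1 CPM were among the higher and Lcn2 at 35.9 and 12.9 CPM among the lower. The Control value of Timp1 is the level that 3 UMIs give. Fibroblast markers in macrophages were 131 and 486 CPM, and the part of fibroblast RNA in their Timp1 was not tested. In VECs 3 were higher and 0 lower, beside 6.28% and 4.21% of all genes. In neutrophils 7 were higher and 1 lower, beside 30.3% and 10.2%, so that the higher count was near the background.

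The genes whose levels across 22 units of cell type and library were most like those of each family gene were found among 12312 genes by Pearson's r of log2(CPM + 1). The units share 2 libraries and differ in depth, and the values are descriptions. Il6 was most like Ndufa4l2 (r = 0.93), the eosinophil chemokine Ccl11 (0.93) and Ebf2 (0.90). Osm was most like the myeloid genes Lilrb4a (0.97), Fcer1g (0.97) and Lrrc25 (0.96). For Osmr the nearest genes were Rhoj (0.97), Adamts1 (0.97) and Nfib (0.97). Lif was most like the chemokine Ccl7 (0.87) and complement factor B, Cfb (0.85), and Il11 like Igfbp4 (0.88). Socs3 was closest to Trim3 (0.90), Peli2 (0.90) and Sertad1 (0.90), and Stat3 to Fmr1 (0.93) and Arid5a (0.87).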

How the data were processed

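Single-cell RNA sequencing libraries (10× Genomics) of 1 Control and 1 AngII+HS sample were used. The authors deposited raw UMI counts for every gene and barcode, made with Cell Ranger (8.0.1 per the file headers), with no normalization. The submitters' processing notes name mm10 and the methods GRCm39, and 98.5% of the gene identifiers were found in the GENCODE vM39 annotation of GRCm39. After the study's methods, barcodes below 500 UMIs or 200 genes, or with 20% mitochondrial UMIs or more, were dropped. The doublets with the highest Scrublet scores (scanpy 1.11.5) were removed at 0.8% per 1000 cells, 1019 Control and 4826 AngII+HS cells. Seurat 5.3.0 integrated the libraries on 2000 variable genes, without 73 family and pathway genes, and clustered 30 components at resolution 0.8. Clusters were named by marker lists and otherwise left unnamed. Doublets, free RNA and dissociation may affect levels, and free RNA was not subtracted.

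UMIs were added up within each cell type of a library, and log2 ratios were given with exact conditional binomial 95% intervals, levels with exact Poisson intervals and shares with exact binomial ones. UMIs of 1 cell are not independent samples of a condition, and the intervals cover counting error only. The ratio code was tested on simulated data. Genes named beside the 9 were the 3 most alike in level for each of them with at least 500 UMIs, the 2 highest and 2 lowest of each pathway list in VSMCs, fibroblasts, VECs, macrophages and neutrophils with at least 50 UMIs, and the leading genes of clusters. The genes and lists were chosen with earlier results of these data known. Alternatives were 2 other doublet settings, a stricter cell filter (1000 UMIs, 500 genes, 10% mitochondrial), no integration, resolutions 0.4 and 1.2, family and pathway genes allowed in clustering, CPM without mitochondrial genes, equal weight per cell, thinning to 1000 UMIs and TMM scaling (edgeR 4.0.16). The human samples and other assays of the study were not analysed here. One gene of the list of other ligands is not reported here.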

Additional observations from a re-analysis of the deposited data

Results flagged for a closer look

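With 1 library per condition, the following differences between cell types were not tested. They were listed because a gene was higher in AngII+HS in 1 type and lower in another, each with a counting interval that leaves out 0. Socs3 had a log2 ratio of -1.41 in VSMCs and of 0.95 in neutrophils, which had 98 Control cells. Lif had 1.50 in macrophages and -1.01 in LECs, where the share of cells with a Lif UMI after thinning was 2.22% in Control and 3.57% in AngII+HS. Il6st had 1.16 in the Pln/Notch3 mural cluster and -0.80 in macrophages. Osmr had 0.66 in neural cells, on 48 Control UMIs, and -0.77 in VECs.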

How the results depend on the processing

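Of 40 log2 ratios of family genes in 6 cell types, 8 were past 2-fold, and 5 to 8 of these 8 stayed past it in the same direction under each of the 10 alternatives planned. Il11 in fibroblasts reversed when double the number of doublets were removed (log2 ratio -0.53), was 0.20 with equal weight per cell, and was 0.34 without the Mmp13-led cluster, an alternative added after the data were seen. Socs3 in VSMCs was -1.52 with equal weight per cell, -1.34 without integration and -1.23 with no doublets removed, and in macrophages 0.63 with none removed. Il6 in the Pln/Notch3 mural cluster was 1.22 with double the number of doublets removed and 1.23 with none removed, and in VECs 1.79 with none removed. TMM scaling shifted all log2 ratios by 0.14 in fibroblasts, where Il6 became 0.06, by -0.10 in the mural cluster and by -0.19 in neutrophils. Il6ra in macrophages was -0.98 with equal weight per cell. In fibroblasts Il6ra fell short of 2-fold with double the number of doublets removed (-0.995) and with none removed (-0.92). It also did so with TMM scaling (-0.91) and with equal weight per cell (-0.30). The fibroblast share of AngII+HS Il6 UMIs was 87.4% with double the number of doublets removed and 84.2% with none removed. The macrophage share of Osm was 77.8% with the stricter filter, 75.0% with pathway genes used in clustering and 65.7% with no doublets removed, where 2250 cells stayed unnamed. Beyond the construction of each alternative, the cause was not tested. No paired analysis was possible because each condition has 1 library. Among the types found in both libraries, the number of Control cells limits neutrophils, DCs and B cells most, at 98, 30 and 99 cells.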

Other observations

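A list of 6 held genes known to induce Il6 and genes that follow NF-kappaB. Il1b, the inflammatory cytokine interleukin-1 beta, was 533 CPM in Control and 3263 CPM in AngII+HS macrophages, and Il1a was 96.4 and 378 CPM. In neutrophils Il1b was 4662 and 6056 CPM and Tnf 620 and 2367 CPM. Fibroblasts, where Il6 levels were nearly equal in both libraries, had 1524 and 1675 CPM of Nfkbia and 502 and 512 CPM of Nfkbiz, 2 genes that follow NF-kappaB. In VSMCs Nfkbia was 1557 and 651 CPM. The Il1b of fibroblasts (1.27 and 61.7 CPM) and VECs (0.696 and 70.2 CPM) was far under that of myeloid cells, and neutrophil markers were higher in AngII+HS in both.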
